A study of Homo sapiens with 8 samples.

Results

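The genes described here are 41 genes of the amino acid stress response and the unfolded protein response, taken by name from the deposited tables of an RNA-seq study of SETD7 in H1 cells. All 41 were in the day 0 table of 14070 genes, and 40 were in the day 2 table of 11644 genes. INHBE was not analysed here at day 2. The list was divided by role into 6 stress transcription factors, 6 feedback and secreted effectors, 8 amino acid and one-carbon enzymes, 3 genes for endoplasmic reticulum (ER) stress sensors and XBP1, 6 ER chaperones and genes of ER-associated degradation (ERAD), and 12 cytosolic tRNA synthetases under their older symbols.

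H1 is an established human embryonic stem cell line. The 4 groups were wild-type (WT) cells and SETD7 knockout (SETD7 KO) cells at Day0, before differentiation, and the same genotypes at Day2 of a hematopoietic differentiation. Day 0 had 1 library per genotype, and day 2 had 3 per genotype. The labels name no number of knockout clones and no separate cultures or inductions behind the replicates. Each p-value is therefore set against the variation among these libraries alone, which may be technical.

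Cells answer a shortage of amino acids, or misfolded protein in the ER, by phosphorylating the translation factor eIF2. General translation then slows while the mRNA of the transcription factor ATF4 is translated better, so ATF4 activity need not follow ATF4 mRNA. ATF4, with C/EBP partners, raises genes for amino acid synthesis, transport and tRNA charging, and in prolonged stress DDIT3 (CHOP), TRIB3 and CHAC1. The ER has further arms, ATF6 and the ERN1 (IRE1) and XBP1 pair, which raise chaperones of the ER lumen. ATF4-family factors bind C/EBP-ATF response elements (CARE), and ATF6 and XBP1 bind ER stress response elements (ERSE).

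These elements are shown first, because the day 0 differences are set beside them below, as a description. RefSeq promoters (GRCh38.p14, 250 bases before to 50 after the start) were matched for 35 of the 41 genes; INHBE, PSPH, SHMT2, PYCR1, YARS and LARS had no entry. The CARE core searched was TGATGNAAN, on both strands, and it was found in 10 of the 35 (28.6%) and in 3.67% of all 27305 promoters. The ERSE searched was CCAAT, 9 unspecified bases and CCACG, also on both strands. It was found in 4 of the 35 (11.4%), XBP1, HSPA5, HSP90B1 and CALR, and in 0.0806% of all promoters. Each line below gives 29 bases upstream of the start on the gene's strand, 5′ to 3′, with the match in capitals; GTTGCATCA and the matches that begin CGTGG are on the opposite strand.
ASNS: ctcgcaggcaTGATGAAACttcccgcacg
CHAC1: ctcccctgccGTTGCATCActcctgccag
ATF3: aaggtcaggaTGATGGAAGgctgtcatat
AARS: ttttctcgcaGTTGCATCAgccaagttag
HERPUD1: gacgcggcggGTTGCATCAgcccgtgccc
HSPA5: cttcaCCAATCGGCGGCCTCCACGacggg
HSP90B1: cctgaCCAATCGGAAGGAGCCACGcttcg
HSP90B1: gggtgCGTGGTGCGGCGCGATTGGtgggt
CALR: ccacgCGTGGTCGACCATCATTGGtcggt
XBP1: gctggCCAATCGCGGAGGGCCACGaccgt

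The CARE core stretches lie at chr7:97872458-97872486 (ASNS, minus strand), chr15:40953251-40953279 (CHAC1, plus), chr1:212565206-212565234 (ATF3, plus), chr16:70289676-70289704 (AARS, minus) and chr16:56931955-56931983 (HERPUD1, plus). The ERSE stretches lie at chr9:125241386-125241414 (HSPA5, minus), chr12:103930211-103930239 and chr12:103930316-103930344 (HSP90B1, plus), chr19:12938379-12938407 (CALR, plus) and chr22:28800598-28800626 (XBP1, minus). The first base of the match was 68 bases before the start in ASNS, 210 in CHAC1, 191 in ATF3 and 188 in AARS. In HSPA5 it was 66 bases before the start, and in XBP1 it was 52. Of the 10 matched synthetase promoters, 6 held a CARE core: AARS, NARS, MARS, TARS, IARS and CARS. The synthetase matches other than in AARS lay within 22 bases of the start on either side. The TARS match also read ATTGCATCA, the full CARE searched, which was in 0.264% of all promoters. HERPUD1 also held the ERSE-II form, ATTGG, 1 unspecified base and CCACG, at chr16:56932016-56932044, the only one of the 35 to do so, against 0.0549% of all promoters. The UPRE core TGACGTGG was found only in ALDH18A1 among the 35, against 0.795% of all. A match describes these letters only, and the absence of one says nothing of a factor.

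SETD7 itself was checked first. Its day 0 level was 3.53 FPKM (fragments per kilobase of transcript, scaled to library size) in wild type against 1.48 FPKM in SETD7 KO. By day 2 it was at 54.8, 56.2 and 55.6 CPM, the counts scaled to library size, in wild type and 32.9, 28.9 and 33.7 CPM in the knockout (log2 fold change −0.80, edgeR adjusted p 9.51e-13). Day 2 totals ran from 27880068 to 39553614 counts per library, and the day 0 depth is unknown. Pluripotency markers summed to 1018 and 958.7 FPKM in the wild-type and knockout libraries of day 0, and mesoderm markers reached 3791 to 3839 CPM in wild type and 3864 to 3919 CPM in the knockout at day 2. These mesoderm sums did not overlap between the genotypes. The pluripotency sums of day 2 (4 of 5 genes tested) did, at 1265 to 1278 CPM in wild type and 1272 to 1289 CPM in the knockout. Summed over their tested genes at day 2, markers of 3 other cell types also differed between the genotypes without overlap. Of all single genes, 37.7% did not overlap. Endoderm markers (3 of 4 tested) were at 254.1 to 257.8 CPM in wild type and 217.2 to 234.4 in the knockout, with FOXA2 not analysed here. Neural markers (2 of 4) were at 519.8 to 543.3 and 559.8 to 601.2 CPM, without PAX6 and SOX1, and fibroblast markers (4 of 5) at 355.7 to 373.4 and 486.7 to 510.1 CPM, without DCN. Only 1 of 5 blood markers was tested, at 25.3 to 30.2 CPM over the 6 libraries. At day 0 the endoderm, neural and fibroblast sums were 0.98, 69.6 and 171.8 FPKM in the wild-type library and 1.08, 54.9 and 160.7 FPKM in the knockout library. The part of these cell types in the results below was not tested, and in bulk RNA fewer cells of a type and less RNA per cell cannot be told apart.

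In undifferentiated cells, stress genes such as DDIT3, INHBE, CHAC1, ATF3 and ASNS were lower in the knockout library, ATF4 mRNA was within 1.5-fold, and the ER chaperone HSPA5 was higher. Of the 41 genes, 18 (43.9%) were lower by at least 1.5-fold and 1 (2.44%) was higher, on the scale of log2(FPKM + 1) used for all day 0 differences. Over all 13284 genes that reached 1 FPKM in at least 1 of the libraries, 8.77% were that much lower and 4.81% that much higher. The median log2 ratio of the 41 was −0.30, and that of all genes was −0.03. With 1 library per genotype these differences have no replicate check and no p-value, and they compare 2 libraries rather than 2 genotypes. The genes were also chosen with results of these data known.

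**Figure D1:**
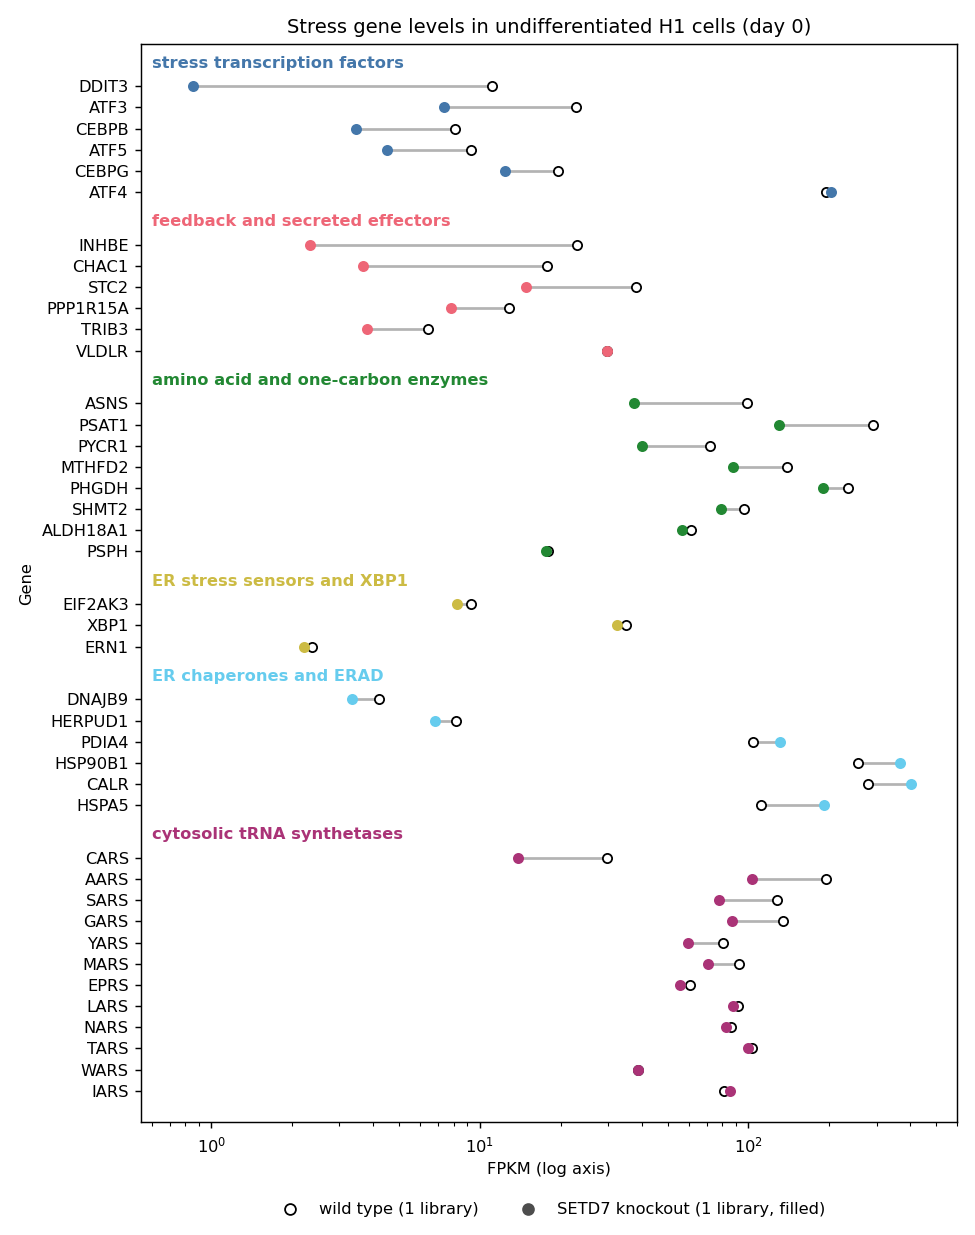
FPKM of the 41 genes at day 0 (x axis, logarithmic) in the wild-type library (open) and the SETD7 knockout library (filled), by role. The widest gaps are in DDIT3 and INHBE, ATF4 is at 194 and 204 FPKM, and HSPA5, CALR, HSP90B1 and PDIA4 lie to the right in the knockout.

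Among the transcription factors, 5 of 6 were past 1.5-fold, all lower. ATF4 was at 194 FPKM in wild type and 204 FPKM in the knockout, a log2 ratio of 0.07, and was the most abundant of the 6. DDIT3, which encodes the pro-apoptotic factor CHOP, was at 11.1 FPKM in wild type and 0.854 FPKM in the knockout (log2 ratio −2.71). Only 0.0678% of all genes had a ratio as low or lower. ATF3, a stress-induced repressor and activator that responds to ATF4, was at 22.8 and 7.35 FPKM (log2 ratio −1.51). CEBPB, a C/EBP factor that can pair with ATF4, was at 8.08 and 3.46 FPKM (log2 ratio −1.03), and ATF5, a close relative of ATF4, at 9.27 and 4.52 FPKM (−0.90). CEBPG, another dimer partner of ATF4, was nearest to the threshold, at 19.6 and 12.5 FPKM (−0.61).

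The effectors divided in the same way, with 5 of 6 lower and VLDLR level. INHBE, the gene of the activin subunit beta E and a secreted product of stressed cells, was at 23.0 FPKM in wild type and 2.33 FPKM in the knockout, the lowest log2 ratio of the 41 (−2.85). CHAC1, which degrades glutathione, was at 17.8 and 3.69 FPKM (log2 ratio −2.01). STC2, a secreted glycoprotein of the stress response, was at 38.2 and 14.9 FPKM (−1.299). The remaining differences were smaller and concerned genes that feed back on the pathway. PPP1R15A (GADD34), which directs dephosphorylation of eIF2, was at 12.8 and 7.83 FPKM (−0.65), and TRIB3, a pseudokinase that restrains ATF4, at 6.40 and 3.81 FPKM (−0.62). VLDLR, a lipoprotein receptor, was at 29.7 and 29.9 FPKM.

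Of the 8 enzymes, 4 were lower by at least 1.5-fold in the knockout library and 4 were within it. ASNS, which makes asparagine, was at 98.5 FPKM in wild type and 37.7 FPKM in the knockout (log2 ratio −1.36). PSAT1, the aminotransferase of serine synthesis and the most abundant of the 41 in wild type, was at 292 and 131 FPKM (−1.16). PYCR1, which completes proline, was at 71.8 and 40.01 FPKM (−0.83), and MTHFD2, the mitochondrial folate enzyme, at 139 and 88.0 FPKM (−0.66). Enzymes of the same routes differed less. PHGDH, which opens serine synthesis, was at 234 and 190 FPKM (−0.30), and SHMT2, which splits serine in mitochondria, at 96.1 and 79.0 FPKM (−0.28). ALDH18A1, which opens proline synthesis, and PSPH, which completes serine, had log2 ratios of −0.12 and −0.03. Serine synthesis thus held 1 enzyme past 1.5-fold, PSAT1, between 2 that were not.

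Of the 9 ER genes, 1 was past 1.5-fold at day 0 and it was higher, 4 having ratios above 0 and 5 below. HSPA5 (BiP), the main chaperone of the ER lumen, was at 112 FPKM in wild type and 191 FPKM in the knockout (log2 ratio 0.77), the only member higher by 1.5-fold. The calcium-binding chaperone CALR was at 278 and 404 FPKM (0.54) and HSP90B1 (GRP94) at 256 and 366 FPKM (0.52). PDIA4, a disulfide isomerase, was at 104 and 131 FPKM (0.32). These 3 were within 1.5-fold. The other ER genes had ratios a little below 0. DNAJB9, a co-chaperone of BiP, had a log2 ratio of −0.26 and HERPUD1, an ERAD component, one of −0.23. XBP1 was at 35.0 and 32.4 FPKM (−0.11), the sensor kinase EIF2AK3 (PERK) at 9.28 and 8.25 FPKM (−0.15) and ERN1 at 2.37 and 2.22 FPKM (−0.06). The 3 chaperones with the highest ratios are those whose promoters hold the ERSE shown above, and XBP1, which also holds it, had a ratio below 0.

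tRNA synthetases attach amino acids to their tRNAs, and 4 of these 12 were lower by at least 1.5-fold in the knockout library, the other 8 being within it. CARS (cysteine) was at 29.8 FPKM in wild type and 13.9 FPKM in the knockout (log2 ratio −1.05). AARS (alanine) was at 195 and 103 FPKM (−0.92), SARS (serine) at 127 and 77.7 FPKM (−0.71) and GARS (glycine) at 135 and 87.0 FPKM (−0.63). YARS (tyrosine, −0.42) and MARS (methionine, −0.38) came next, and the other 6 ranged from −0.12 for EPRS to 0.07 for IARS. None of 11 further synthetase and scaffold genes was past 1.5-fold, with a median log2 ratio of 0.25, against −0.25 for the 12 described here. None of 17 mitochondrial synthetases was past 1.5-fold either, and their median was 0.01.

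The rest of the pathway at day 0 was read from lists that share no gene with the 41. Of 12 other stress-response genes, 6 were lower by at least 1.5-fold and none higher, with a median of −0.69. These 6, named after their values were seen, were TXNIP (76.7 and 3.58 FPKM), SESN2 (16.2 and 5.81), CTH (27.6 and 11.3), GDF15 (7.25 and 2.66), DDIT4 (139 and 62.0) and JDP2 (14.6 and 6.57). Among 9 amino acid transporters, SLC7A11, which imports cystine, was lower (17.0 and 3.76 FPKM) and SLC38A2, a neutral amino acid importer, higher (74.5 and 153 FPKM). None of the 13 genes for eIF2 kinases, phosphatase cofactor, eIF2 and eIF2B was past 1.5-fold (median 0.02). Of 28 other ER folding and ERAD genes, WFS1 (12.2 and 4.43 FPKM) and EDEM2 (16.9 and 9.86 FPKM) were lower and none higher (median 0.08). Of 14 other serine, one-carbon and proline enzymes, only PRODH, which degrades proline, was lower (37.8 and 10.9 FPKM), and the median was 0.16.

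The CARE core was also set against the day 0 ratios of all genes with a promoter entry, as a description. Of the 10 members that held it, 5 were lower by at least 1.5-fold. Without it, these members with a promoter entry were also that much lower: ATF5, DDIT3, CEBPB, CEBPG, PPP1R15A, TRIB3, STC2, PSAT1, MTHFD2, GARS and SARS. The others without it were not. Any part of the element in the day 0 ratios was not tested. Of 145 other genes with a CARE core 12.4% were lower and 5.52% higher, and over all 10423 genes these shares were 8.24% and 4.59%. Of 10 other genes with an ERSE, 1 was lower and none higher, with a median of 0.02. The median of the 4 members with an ERSE was 0.53.

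At day 2 of differentiation the log2 fold changes of these genes lay between −0.40 and 0.42, and calls were made in both directions. In edgeR's quasi-likelihood test, adjusted by Benjamini-Hochberg over all 11475 genes tested, 10 of the 40 (25.0%) passed 0.05, against 23.3% of all genes. Of these, 7 rose in the knockout (VLDLR, STC2, PPP1R15A, AARS, PYCR1, WARS and MARS) and 3 fell (ATF5, ATF3 and TARS), where 12.3% of all genes rose and 11.0% fell. The median log2 fold change was 0.03, and that of all genes −0.003. Values of the genotypes did not overlap in 16 of the 40 genes and in 37.7% of all genes. These shares are near those of all genes. Knockout replicate 1 stood apart from the other knockout libraries. Its counts differed from theirs by a chi-square per degree of freedom of 8.98 and 6.12, against 3.05 between the other two and 3.34 to 4.36 within wild type. Without it 12 of the 40 passed, with ATF4, PSAT1 and TRIB3 added and TARS lost. Over all genes 2421 of 11492 passed in that fit, against 2668 of 11475 in the main fit. Of the 30 that did not pass, 24 had a 95% interval of the difference within 1.2-fold either way.

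**Figure D2:**
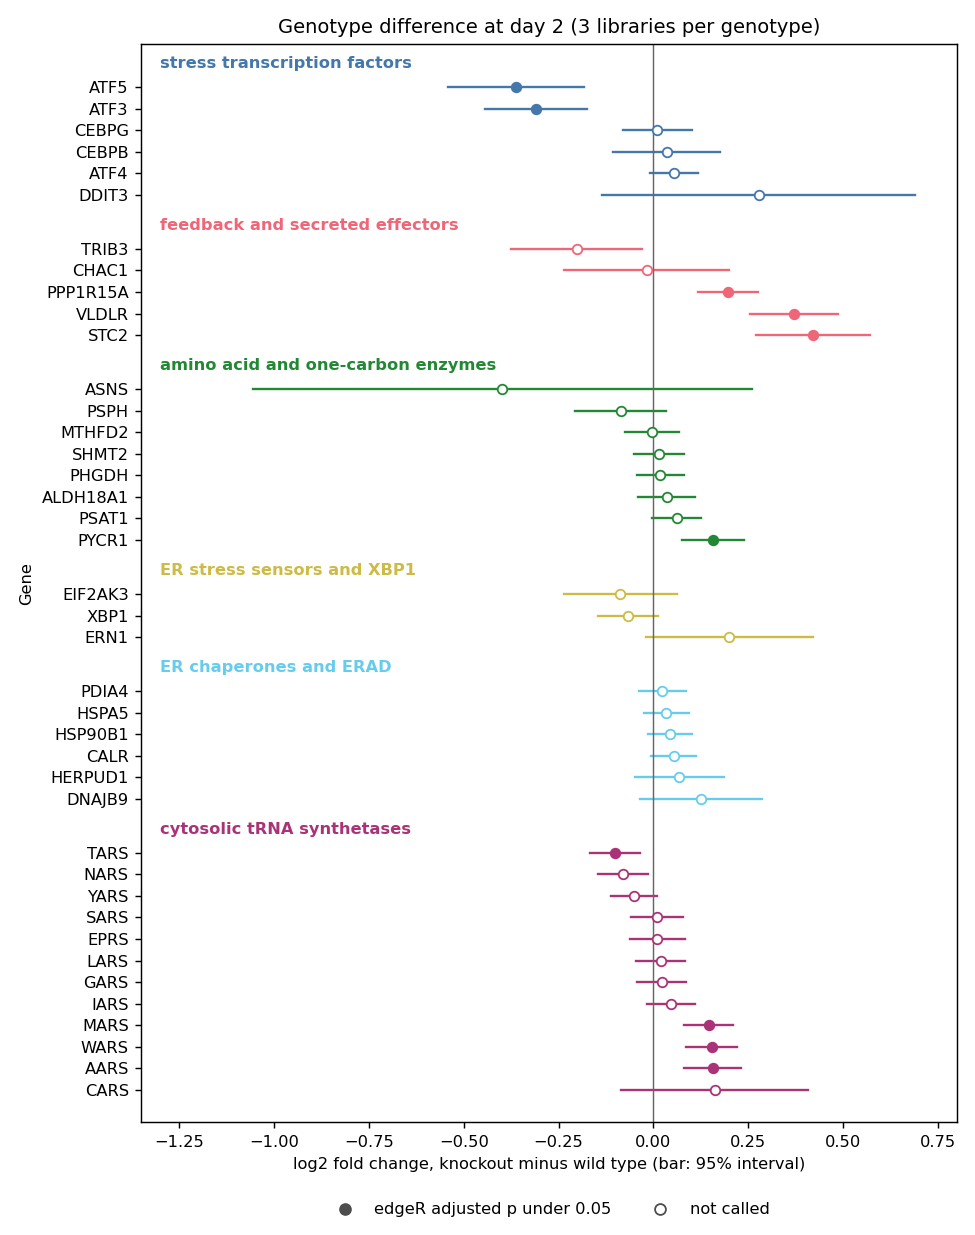
Log2 fold change at day 2, knockout minus wild type (x axis), with its 95% interval from edgeR, for the 40 genes tested, by role. Filled points passed an adjusted p of 0.05; ATF5 and ATF3 lie left of 0, VLDLR and STC2 lie furthest right, and no ER gene is filled.

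Among the transcription factors, ATF5 and ATF3 fell and the others did not pass. ATF5 was at 16.2, 15.1 and 18.0 CPM in wild type and 13.5, 12.7 and 12.1 CPM in the knockout (log2 fold change −0.36, SE 0.089, edgeR adjusted p 0.00258). ATF3 was at 28.1, 29.2 and 28.5 CPM in wild type and 22.9, 22.3 and 24.1 CPM in the knockout (−0.31, SE 0.066, edgeR adjusted p 0.000606). For both genes every knockout library lay below every wild-type library. ATF4 was at 534, 549 and 557 CPM in wild type and 550.01, 581 and 572 CPM in the knockout, so the genotypes overlapped (0.05, edgeR adjusted p 0.213). Without knockout replicate 1 its log2 fold change was 0.08 and its edgeR adjusted p 0.0232, within a range of 0.0232 to 0.509 over the settings. DDIT3 was low in all libraries, at 1.95, 2.18 and 2.22 CPM in wild type and 2.85, 2.52 and 2.32 CPM in the knockout. The groups did not overlap, but the difference did not pass (0.28, 95% interval −0.14 to 0.69, edgeR adjusted p 0.349). CEBPB (0.03) and CEBPG (0.01) did not pass.

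The effector genes held the largest increases. STC2 was at 23.2, 22.9 and 18.6 CPM in wild type and 28.3, 29.3 and 29.04 CPM in the knockout, which is 1.34-fold higher (log2 fold change 0.42, SE 0.074, edgeR adjusted p 5.22e-05). VLDLR was at 32.1, 32.4 and 32.4 CPM in wild type and 40.99, 41.9 and 42.5 CPM in the knockout, or 1.29-fold higher (0.37, SE 0.056, edgeR adjusted p 6.31e-06). PPP1R15A was at 104, 106 and 109.7 CPM in wild type and 123, 122 and 121 CPM in the knockout, or 1.147-fold higher (0.20, SE 0.039, edgeR adjusted p 0.000222). In all 3 genes every knockout library exceeded every wild-type library, and STC2 had its lowest value in wild-type replicate 3. The summed fibroblast markers given above were also higher in every knockout library, and any link to these 3 genes was not tested. Markers of that list were at 171.8 and 160.7 FPKM in undifferentiated cells, so their sum need not measure fibroblasts. TRIB3 (−0.20, edgeR adjusted p 0.0832; −0.29 and 0.0095 without knockout replicate 1) and CHAC1 (−0.02, edgeR adjusted p 0.928), both effectors of prolonged stress, did not pass.

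**Figure D3:**
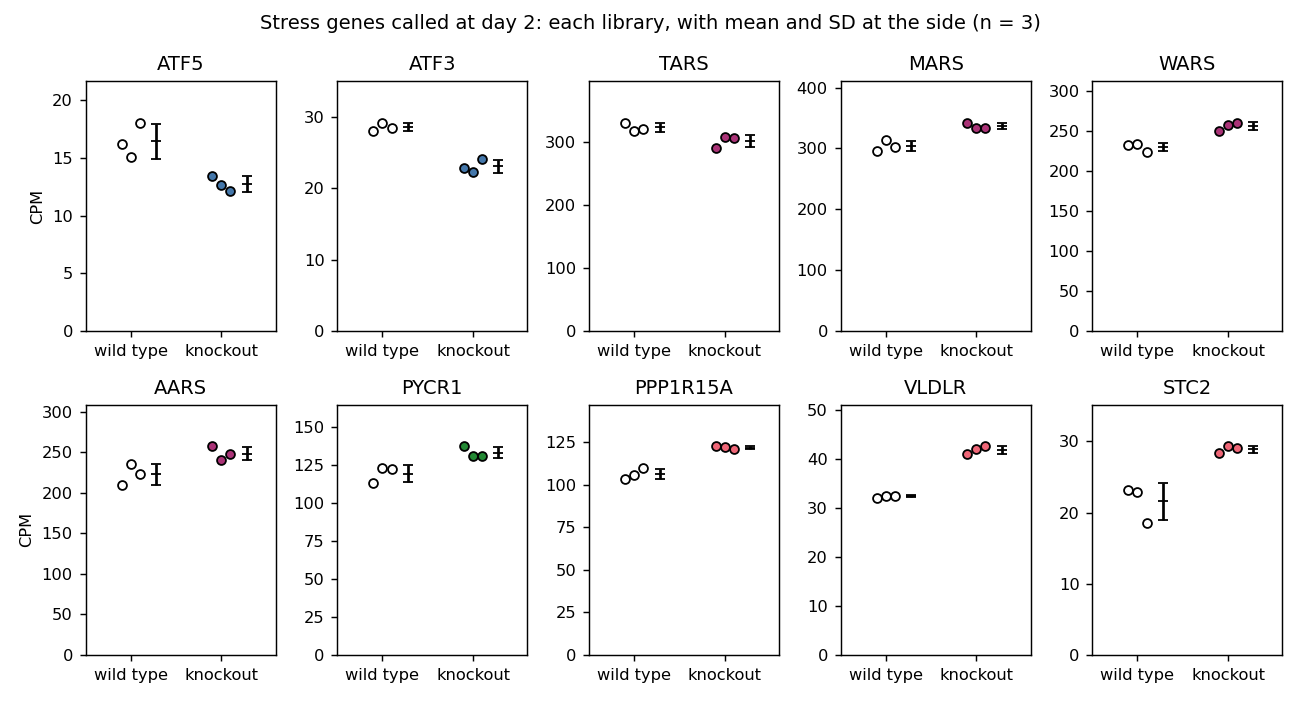
CPM (y axis, from 0) of the 10 genes that passed at day 2, in each wild-type (open) and knockout (filled) library, with the mean and SD (n = 3) beside them. Knockout points lie below wild type in ATF5, ATF3 and TARS and above it in the other 7, and the gaps are small against the height of the axis.

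Of the enzymes, PYCR1 alone passed. It was at 113, 123 and 122 CPM in wild type and 137, 131 and 131 CPM in the knockout (log2 fold change 0.16, SE 0.040, edgeR adjusted p 0.00337). The serine enzymes PHGDH (0.02), PSAT1 (0.06) and PSPH (−0.09) and the one-carbon enzymes SHMT2 (0.01) and MTHFD2 (−0.004) did not pass, and each interval lay within 1.2-fold. PSAT1 passed only without knockout replicate 1 (0.09, edgeR adjusted p 0.0132). ASNS was at 0.651, 1.18 and 1.36 CPM in wild type and 1.07, 0.716 and 0.605 CPM in the knockout, from 18 to 43 counts per library (−0.40, 95% interval −1.06 to 0.26, edgeR adjusted p 0.406). A gene at 98.5 FPKM at day 0 was thus near the low end of the day 2 table. In GENCODE release 29, 44.6% of the exon bases of ASNS (chr7:97852118-97872542, minus strand) are shared with another gene on the same strand, AC079781.5, and the counting of shared reads is not described in the sources used here. Whether that sharing lowered the ASNS counts was not tested, so its day 2 level is uncertain.

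No ER gene passed at day 2. None of the 9 sensors, chaperones and ERAD genes passed edgeR, none had an unadjusted p under 0.05, and DESeq2 and limma-voom called none. Of all genes 23.3% passed edgeR, and 9 genes are few to set against that share. HSPA5 was at 1409.98, 1456 and 1476 CPM in wild type and 1486, 1485 and 1475 CPM in the knockout (log2 fold change 0.03, 95% interval −0.02 to 0.09). XBP1 was at 120.1, 117 and 124 CPM and 111, 118 and 115 CPM (−0.07, 95% interval −0.15 to 0.01). Both genes overlapped between the genotypes. CALR, with the smallest p of the chaperones, was at 1091, 1106 and 1104 CPM in wild type and 1159, 1141 and 1126 CPM in the knockout, without overlap (0.05, edgeR adjusted p 0.185). ERN1, with the smallest p of the sensors, was at 8.43, 10.2 and 9.52 CPM and 12.2, 10.2 and 9.78 CPM (0.20, 95% interval −0.02 to 0.42, edgeR adjusted p 0.187). HSP90B1 (0.04), PDIA4 (0.02), HERPUD1 (0.07), DNAJB9 (0.13) and EIF2AK3 (−0.09) also did not pass. The 95% intervals of ERN1 and DNAJB9 (−0.04 to 0.29) reached past 1.2-fold, and those of the other ER genes lay within it.

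The synthetases moved by small amounts in both directions, 3 up and 1 down of 12. Of all genes, 12.3% rose and 11.0% fell. WARS (tryptophan) was at 233, 234 and 225 CPM in wild type and 250.4, 258 and 261 CPM in the knockout (log2 fold change 0.15, SE 0.033, edgeR adjusted p 0.000606). MARS was at 296, 313 and 303 CPM in wild type and 342, 334 and 333 CPM in the knockout (0.15, SE 0.032, edgeR adjusted p 0.000767). AARS was at 209.8, 235 and 223 CPM in wild type and 257, 241 and 247 CPM in the knockout (0.16, SE 0.037, edgeR adjusted p 0.0022). The genotypes did not overlap in these 3 genes, and each difference was 1.11-fold. TARS (threonine) fell, from 329.8, 317 and 320.2 CPM to 289, 307 and 305 CPM, without overlap (−0.10, SE 0.032, edgeR adjusted p 0.02). This call was lost without wild-type replicate 1 (edgeR adjusted p 0.101), wild-type replicate 3 (0.0583) or knockout replicate 1 (0.065). Upper-quartile scaling (0.0532) and a block for replicate number (0.0621) also ended it, within a range of 0.0156 to 0.101. NARS (asparagine) was lower in all 3 knockout libraries but did not pass (−0.08, edgeR adjusted p 0.0713). The other 7 ranged from −0.05 for YARS to 0.16 for CARS, which stood at 6.20 to 7.99 CPM over the 6 libraries.

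In the lists of other pathway genes at day 2, 7 of 99 rose and 8 fell, against 12.3% and 11.0% of all genes, and each list below is to be read against those shares. When wild-type replicate 3 was left out, 9 in all passed in edgeR, and likewise 9 when knockout replicate 3 was. Over all genes 2005 and 2114 passed in those 2 fits, against 2668 in the main fit. CBS, which condenses serine with homocysteine, rose from 51.7 ± 2.00 to 65.1 ± 1.19 CPM (SD, n = 3; log2 fold change 0.33, edgeR adjusted p 3.86e-06). Of 13 tested stress-response genes, GDF15 (0.55) and GPT2 (0.18) rose with CBS, and GRB10 (−0.19) and EIF4EBP1 (−0.12) fell. EIF4EBP1 was lost in edgeR without wild-type replicate 1 (adjusted p 0.0658) or knockout replicate 1 (0.094). Among 9 transporters the cationic amino acid carrier SLC7A3 rose (0.22, edgeR adjusted p 0.000329). ER folding and ERAD genes outside the 41 had 4 that fell of 25 and none that rose, namely SEC61B (−0.19), a subunit of the translocon, CRELD2 (−0.22), DERL2 (−0.18) and DNAJC3 (−0.14). DESeq2 and limma-voom called 3 of this list, not DNAJC3, whose genotypes overlapped (edgeR adjusted p 0.0453). DNAJC3 was also lost with upper-quartile scaling (edgeR adjusted p 0.078), without wild-type replicate 1 (0.351) or 2 (0.0717) and without knockout replicate 2 (0.0886) or 3 (0.138). The edgeR call of CRELD2 was lost without wild-type replicate 2 (adjusted p 0.0737) or knockout replicate 3 (0.0547), and that of DERL2 without wild-type replicate 3 (0.0917) or knockout replicate 1 (0.135). Of 11 other cytosolic synthetase and scaffold genes VARS (0.54) rose and HARS (−0.13) fell. VARS was low, at a mean of 2.40 CPM in wild type and 3.45 CPM in the knockout. VARS kept its edgeR call only without wild-type replicate 1 among the fits that left out 1 library (adjusted p 0.0633 to 0.245 without each of the others). HARS lost its edgeR call without wild-type replicate 2 (adjusted p 0.0837), wild-type replicate 3 (0.108) or knockout replicate 1 (0.0904). Among 15 mitochondrial synthetases EARS2 (0.15) rose and FARS2 (−0.29) fell. In edgeR EARS2 was lost without wild-type replicate 1 (adjusted p 0.134), wild-type replicate 3 (0.0984) or knockout replicate 3 (0.101), and FARS2 without wild-type replicate 3 (0.214) or knockout replicate 3 (0.107). None of 13 eIF2 kinase, phosphatase, eIF2 and eIF2B genes passed edgeR, DESeq2 or limma-voom, and 3 had an unadjusted edgeR p under 0.05.

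Set side by side, the days did not give the same genes. Of the 18 genes lower by at least 1.5-fold in the day 0 knockout library, 2 fell at day 2 (ATF3 and ATF5), 4 rose (PPP1R15A, STC2, PYCR1 and AARS), 11 did not pass and 1 was not tested. Of the 22 within 1.5-fold at day 0, 3 rose and 1 fell at day 2. At day 2, 12.3% of all genes rose and 11.0% fell. The counts by day 0 side were not made over all genes, so they have no share to be read against. The median size of the log2 difference was 0.52 at day 0 and 0.07 at day 2 for these genes, against 0.23 and 0.10 for all genes. Day and unit differ together, FPKM of 1 library against counts of 3, so the change between days cannot be told apart from the change of unit, and it was not tested.

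**Figure D4:**
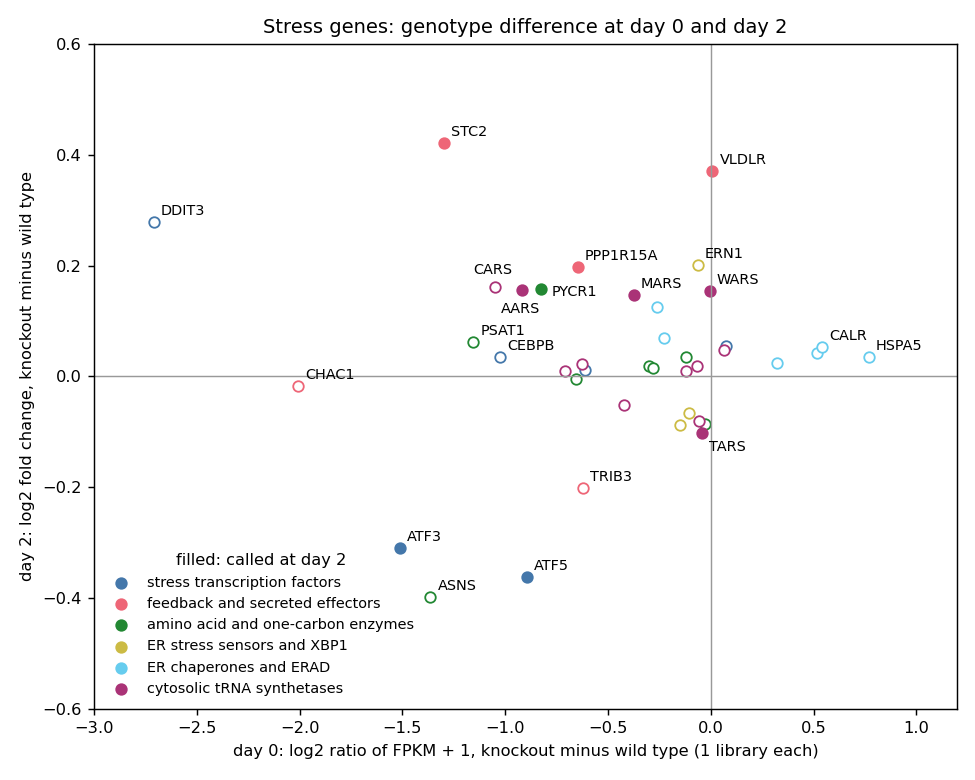
Log2 ratio of FPKM + 1 at day 0 (x axis, 1 library per genotype) against log2 fold change at day 2 (y axis, 3 libraries per genotype), both knockout minus wild type, for 40 genes. The x axis spans more than the y axis; DDIT3 and CHAC1 lie far left without a call at day 2, and STC2, PPP1R15A, AARS and PYCR1 are lower at day 0 and higher at day 2.

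In position the genes were spread over 16 chromosomes, with 4 of them close together on chromosome 12 (GRCh38, GENCODE release 29). SHMT2 (chr12:57229327-57234935), INHBE (chr12:57452323-57459280), MARS (chr12:57475445-57517569) and DDIT3 (chr12:57516588-57521737, the only one on the minus strand) lie within 292.4 kb. At day 0 their log2 ratios were −0.28, −2.85, −0.38 and −2.71 in that order. The other genes of the interval were not examined. The ends of MARS and DDIT3 overlap on opposite strands. Of the exon bases of DDIT3, 31.6% are shared with genes on the opposite strand (MARS and MBD6), and of MARS 12.4%. Over 10% of exon bases are shared with another gene in 9 of the 41: DDIT3, ASNS, MTHFD2, PYCR1, ATF5, EIF2AK3, MARS, CEBPB and WARS. Pseudogene copies are annotated for 11, among them ATF4, PSAT1, ASNS and MTHFD2. The sources used here describe neither the strand setting nor the handling of shared reads, so the values of these genes are uncertain to that extent.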

How the data were processed

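RNA-seq was deposited for 8 libraries: 1 wild-type and 1 SETD7 knockout at day 0, and 3 of each at day 2, grouped by the sample titles. Per the file headers, the deposited day 0 values are FPKM and the deposited day 2 values are counts per gene, whole numbers taken as not normalized. The submitters' processing notes name HISAT2, StringTie and GRCh38 (hg38) but no versions. Of the counter, the strand setting and the annotation nothing is given in the sources used here.

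Day 2 counts (27880068 to 39553614 per library) were scaled by TMM, filtered with filterByExpr to 11475 genes and fitted with edgeR 4.0.16 (robust quasi-likelihood F test, 2-sided, genotype only; threshold 0.05 after Benjamini-Hochberg adjustment), run in R 4.3.3. Calls are from this fit of the whole table. CPM are TMM-scaled, and intervals are unadjusted 95% intervals. The biological coefficient of variation was 4.14%. This fit was also run on simulated counts for the same genes, with a single dispersion for all and few changed genes. That setting differs from these data, so the run does not measure the error rate here. Day 0 used log2 ratios of FPKM + 1 for the 13284 genes reaching 1 FPKM in at least 1 of the libraries, with no test. FPKM compares levels between genes, and CPM do not.

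Alternatives were DESeq2 1.42.0 size factors and Wald test, upper-quartile scaling, no filter, limma-voom (3.58.1), the replicate block, leaving out each library, and for day 0 other pseudocounts, filters and centring. The members, lists and rules were chosen with earlier results of these data known. Members that passed at day 2, those past 1.5-fold at day 0, and ATF4, DDIT3, ASNS, XBP1 and HSPA5 are given in full, then the smallest p of each group, and for other pathway lists up to 3 genes of smallest p. GPT2, EIF4EBP1, DNAJC3 and the pathway genes named at day 0 were chosen after their values were seen. Positions and exon sharing are from GENCODE release 29, and promoters from RefSeq GRCh38.p14. Python 3.11.15, pandas 2.3.3, numpy 2.4.6 and matplotlib 3.10.9 were used. The day 2 result of 1 pathway list is not reported here.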

Additional observations from a re-analysis of the deposited data

Results flagged for a closer look

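In 4 genes that passed at day 2, the day 0 pair and the day 2 libraries pointed in opposite directions. Every knockout library of day 2 lay above every wild-type library, and the day 0 knockout library was lower by at least 1.5-fold. The order of libraries was the same in DDIT3 and CARS, which did not pass at day 2 (edgeR adjusted p 0.349 and 0.366). These reversals were not counted over all genes. The day 0 log2 ratio and day 2 log2 fold change were −1.299 and 0.42 for STC2, −0.65 and 0.20 for PPP1R15A, −0.92 and 0.16 for AARS and −0.83 and 0.16 for PYCR1. The difference between the days was not tested, since day 0 has 1 library per genotype and another unit.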

How the results depend on the processing

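The 10 calls among the genes became 9 with upper-quartile scaling, 9 with the replicate number as a block, and 9 to 12 (7 to 9 higher, 2 to 3 lower) when 1 library was left out, and stayed at 10 under the other 4 settings. Over all genes the 2668 calls became 2615, 2210, 2005 to 2509 and 2372 to 2669 in that order. The pathway genes outside the 41 gave 15 calls, 18 with upper-quartile scaling, 12 with the replicate block, 12 by DESeq2's Wald test and 9 to 16 with 1 library left out. SETD7 had a log2 fold change of −0.81 with the block and −0.84 to −0.74 with 1 library left out. Same-numbered libraries did not deviate together (correlations of −0.0728, −0.0721 and −0.0373 across genes). These values show no pairing by number, but they cannot tell how the libraries were prepared. At day 0 the median log2 ratio of −0.30 was −0.321 with a pseudocount of 0.1 FPKM, −0.295 with 5, −0.376 at a minimum of 5 FPKM and −0.269 after centring. The 18 lower genes were 14 with a pseudocount of 5 FPKM, which lost ATF5, CEBPG, PPP1R15A and TRIB3, and 17 after centring, which lost CEBPG. With that pseudocount 346 of all genes were lower and 270 higher, in place of 1165 and 639. The lack of day 0 replicates limits every day 0 value. Few counts limit DDIT3, ASNS and, of the other pathway genes named, VARS at day 2.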
